A study of Saccharomyces cerevisiae and Kluyveromyces marxianus with 18 samples.

Results

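Kluyveromyces marxianus CBS6556, a wild-type thermotolerant yeast, was compared between chemostats without oxygen and chemostats with a limited oxygen supply, in medium of 1 composition. The comparison rests on 4 of the 18 libraries of the series, chosen by the culture conditions in their labels. They are 2 anaerobic libraries with Tween 80 and ergosterol (TE) and 2 oxygen-limited libraries (OL, labelled micro-aerobic). Both groups were grown on 20 g/L glucose in synthetic medium with urea, at a dilution rate of 0.1 per hour and pH 6, with 420 mg/L Tween 80 and 10 mg/L ergosterol and an antifoam. Oxygen supply is thus the condition in which the labels of TE and OL differ. The run code in the library titles also differs between them, and oxygen supply and run cannot be told apart. The other K. marxianus groups served to estimate the spread and to place levels. They are 2 anaerobic libraries with Tween 80 and no ergosterol (T) and 2 aerobic libraries grown on 7.5 g/L glucose with 10 mg/L ergosterol and no Tween 80, all in the same base medium at the same dilution rate and pH. The titles of the TE and T libraries share a run code and, pairwise, the next part of the code, whose meaning is not given, so T may not be independent of TE. The 8 Saccharomyces cerevisiae CEN.PK113-7D libraries of the same 4 conditions, from a wild-type laboratory strain, were used for the species difference alone. The question was which transcripts differ when the last oxygen is withdrawn while sterol and unsaturated fatty acid are supplied.

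Yeasts use molecular oxygen as the acceptor of the respiratory chain and as a substrate of biosynthesis, in the squalene epoxidation, demethylation and desaturation steps of sterol formation, in heme synthesis and in fatty acid desaturation. Tween 80 supplies oleic acid and ergosterol supplies the membrane sterol, and both are the classical anaerobic supplements for S. cerevisiae, which imports sterols when it grows without oxygen. K. marxianus prefers respiration, and grows poorly without oxygen. Gene symbols below are those of the S. cerevisiae entry that the deposited files pair with each K. marxianus gene, and the roles given are known from S. cerevisiae.

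The TE libraries held 8116057 and 6510449 counted read pairs and the OL libraries 9078713 and 9293640. Levels are TMM-scaled CPM, a gene's share of the counted read pairs of its library. They compare a gene between libraries and are not corrected for gene length. Of 5330 genes, 5143 passed the filter on low counts. The edgeR quasi-likelihood test called 2674 genes at a Benjamini-Hochberg adjusted p under 0.05, which is 52.0% of the genes tested. Of the genes tested, 25.7% were called higher in TE and 26.3% lower, and 22.0% differed by 1 or more on the log2 scale in either direction. The TE and OL libraries did not overlap for 86.1% of the genes tested, so that a gap between groups is the common case. A member's call is read against these shares throughout. The median log2 fold change over all genes tested was -0.02, and ± gives the SE of a log2 fold change. The SD of the log2 difference between replicates was 0.27 in TE and 0.18 in OL, and a chi-square test showed that no pair agreed within sampling noise. The spread behind each test was estimated over the 4 K. marxianus groups, and the T libraries differed most from each other (SD 0.63). With T left out of the fit 3839 of 5140 genes tested were called, 1749 higher in TE and 2090 lower. A call was thus the common case in that fit. Among the genes it called were 20 of the 31 named below as not passing. Nothing in the labels says that the libraries come from separate cultures, so the p-values measure the spread between these libraries.

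Gene length moved with the comparison. Across the 5143 genes the log2 fold change had a Spearman correlation of -0.35 with gene length, a description over genes that share the same 4 libraries. In the shortest of 5 length classes of about equal size the median was 0.44, with 449 genes called higher and 141 lower. In the longest class it was -0.37, with 79 called higher and 453 lower. The TE libraries also differed from each other by length, with a median log2 ratio of -0.10 in the shortest class and 0.04 in the longest. The OL libraries differed by -0.02 and 0.01 in those classes. An alternative fit with a length correction, chosen after these values were seen, called 2429 genes, 1177 higher in TE and 1252 lower. Of the 2429 genes, 2048 were among the 2674. Its values are given beside a list or gene named below where it ended or made a call, or moved a count or a called value by more than 1.5 times. Counts with 1 library left out are given on the same terms. The shares over all genes tested given above belong to the main fit. Fits with 1 library left out called fewer genes in total and in each direction. Those shares are therefore no measure for list counts from such fits. The part of gene length in each result was not tested.

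**Figure D1:**
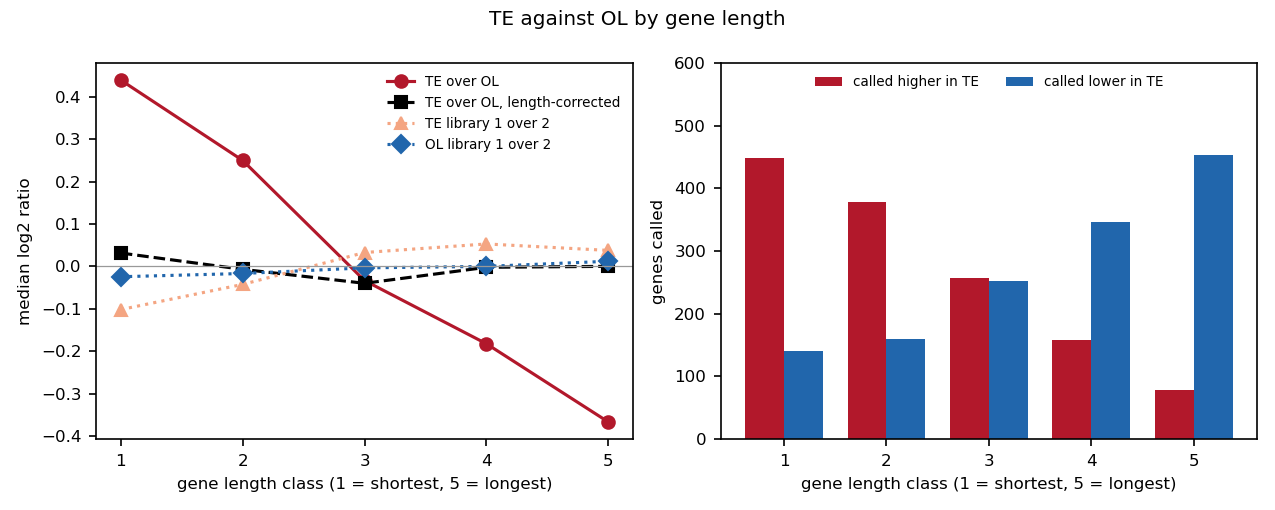
Left, the median log2 ratio by gene length class (5 classes) for TE over OL, for the same after length correction, and for library 1 over 2 within TE and within OL. Right, the number of genes called higher and lower in TE per class. The TE over OL median is 0.44 in the shortest class and -0.37 in the longest, and lies within 0.04 of 0 after the correction.

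Genes of the sterol pathway were called higher in TE mostly where the enzyme uses no oxygen. Of the 9 tested genes for such enzymes, 8 were called higher and 0 lower, with a median log2 fold change of 0.90. ERG24, the sterol C-14 reductase, had 429 and 442 CPM in the TE libraries, against 95.6 and 85.8 CPM in the OL libraries. Both TE libraries lay far above both OL libraries (log2 fold change 2.26 ± 0.14 (SE), adjusted p = 6.18e-05). NCP1, the reductase that passes electrons to the sterol demethylase, had 748 and 722 CPM in the TE libraries, against 230.2 and 232 CPM in the OL libraries (log2 fold change 1.67 ± 0.13 (SE), adjusted p = 0.000144). ERG2, the C-8 isomerase, reached 1.64 ± 0.19 and ERG27, a 3-keto reductase, 1.31 ± 0.16 on the log2 scale. ERG4, the last reductase of the pathway, had 0.56 ± 0.32 and did not pass (adjusted p = 0.185). A fit without the T libraries called ERG4 (adjusted p = 4.49e-05).

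In the mevalonate pathway, which makes the isoprenoid precursor, 5 of 8 genes were called higher and 1 lower, with a median of 0.80. ERG10, the acetoacetyl-CoA thiolase at its start, had 590.2 and 480.1 CPM in the TE libraries, against 242 and 237 CPM in the OL libraries (log2 fold change 1.16 ± 0.27 (SE), adjusted p = 0.0107). IDI1, the isopentenyl diphosphate isomerase, had 1.15 ± 0.10 and MVD1, the decarboxylase, 0.90 ± 0.14. The gene paired with HMG1, the HMG-CoA reductase that limits the pathway, was the exception. It had 103 and 81.8 CPM in the TE libraries, against 324 and 321 CPM in the OL libraries and fell by 1.80 ± 0.40 on the log2 scale (adjusted p = 0.00828). Its TE libraries lay close to its aerobic level of 114 and 121 CPM. ERG10 was not called without TE library 1, OL library 1 or OL library 2, and HMG1 was not called without TE library 2 (adjusted p up to 0.076). Leaving out 1 library gave 3 to 5 higher and 0 to 1 lower for the mevalonate pathway.

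Of the 5 genes for steps that consume oxygen, 2 were called higher and 0 lower, with a median of 0.35. ERG1, the squalene epoxidase, had 3105 and 3346 CPM in the TE libraries, against 1996 and 2100.5 CPM in the OL libraries. The groups did not overlap, and the log2 fold change was 0.65 ± 0.21 (SE), adjusted p = 0.0326. ERG11, the lanosterol demethylase, had 2779 and 2470.1 CPM in the TE libraries, against 1656 and 1754 CPM in the OL libraries (log2 fold change 0.62 ± 0.22 (SE), adjusted p = 0.0456). The C-5 desaturase ERG3 differed by 0.35 ± 0.29, the C-4 methyl oxidase ERG25 by -0.04 ± 0.29 and the C-22 desaturase ERG5 by -0.75 ± 0.39 on the log2 scale, and none of the 3 passed. With T left out of the fit, ERG3 and ERG5 were called (adjusted p up to 0.0102). Both groups were far above the aerobic libraries, which had 137 and 155 CPM of ERG1 and 313 and 304 CPM of ERG11. The calls of ERG1 and ERG11 were lost whichever of the 4 libraries was left out, with adjusted p between 0.0884 and 0.187. When the TE and OL libraries alone were fitted, 3 were called higher and 1 lower. A call was the common case in that fit, with 1823 of 5113 genes tested called higher and 1865 lower. The fits without 1 library gave 0 higher and 0 lower for oxygen-using sterol steps.

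UPC2, the transcription factor that turns on sterol genes when sterol is scarce, had 196 and 192 CPM in the TE libraries, against 270.0 and 273 CPM in the OL libraries (log2 fold change -0.48 ± 0.17 (SE), adjusted p = 0.0456). Its OL libraries were the higher ones, and its aerobic libraries had 44.3 and 48.8 CPM. In this list of 3 genes of sterol sensing, release and storage, YEH2, a steryl ester hydrolase, was called higher (0.88 ± 0.10). ARE2, which stores sterol as ester, had 0.07 ± 0.19 and did not pass. With any 1 of the 4 libraries left out, UPC2 no longer passed (adjusted p between 0.143 and 0.169). Fits that left out 1 library called 1 higher and 0 lower for sterol sensing, release and storage. After length correction the calls were 1 higher and 0 lower (median 0.18) for sterol sensing, release and storage. The length-corrected log2 fold change was -0.21 for UPC2, no longer called (adjusted p = 0.384).

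Other enzymes that use molecular oxygen split in both directions. Of 18 genes, 6 were called higher and 4 lower, which is near the shares over all genes tested. The highest were the oxidases of disulfide formation. ERV1, the sulfhydryl oxidase of the mitochondrial intermembrane space, had 593 and 667 CPM in the TE libraries, against 141 and 158 CPM in the OL libraries (log2 fold change 2.08 ± 0.21 (SE), adjusted p = 0.000366). ERO1, its counterpart in the endoplasmic reticulum, had 658 and 720.0 CPM in the TE libraries, against 201 and 188 CPM in the OL libraries (log2 fold change 1.83 ± 0.14 (SE), adjusted p = 0.000125). ERV2 of the same compartment differed by 1.03 ± 0.25. In these 3 genes the TE libraries were above the OL libraries without overlap. Leaving out 1 library gave 2 to 5 higher and 2 to 3 lower for other oxygen-using enzymes. With length corrected, the log2 fold change was 0.65 for ERV2.

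Of the lower members, YHB1, the flavohemoglobin that oxidizes nitric oxide, had 38.3 and 27.3 CPM in the TE libraries, against 122 and 125 CPM in the OL libraries (log2 fold change -1.91 ± 0.19 (SE), adjusted p = 0.000308). The others were ALO1, the last enzyme of erythroascorbate synthesis (-0.80 ± 0.12), PDX3, the pyridoxamine phosphate oxidase (-0.52 ± 0.13), and SUR2, a sphingoid base hydroxylase (-0.40 ± 0.12). OLE1, the only fatty acid desaturase of S. cerevisiae, had 2235 and 1674 CPM in the TE libraries, against 2340.1 and 2453 CPM in the OL libraries. Its groups overlapped nowhere, yet the difference of -0.29 ± 0.30 did not pass (adjusted p = 0.437). OLE1 was called without the T libraries in the fit (adjusted p = 0.0149). SUR2 did not keep its call when any 1 of the 4 libraries was left out, the adjusted p lying between 0.0509 and 0.173. ERV2 was not called without TE library 2 or OL library 1, and PDX3 was not called without TE library 1, OL library 1 or OL library 2 (adjusted p up to 0.0919). Under length correction the log2 fold change was -0.87 for PDX3.

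Genes of heme synthesis and degradation were mostly not called. Of 9 genes, 1 was called higher, HEM14, the protoporphyrinogen oxidase (0.59 ± 0.17), and 2 were called lower. HEM13, the coproporphyrinogen oxidase and a classical hypoxic gene of S. cerevisiae, had 1374 and 1196 CPM in the TE libraries, against 1014 and 1035 CPM in the OL libraries, and its log2 fold change of 0.33 ± 0.29 did not pass (adjusted p = 0.387). A fit without the T libraries called HEM13 (adjusted p = 0.0119). Its aerobic libraries had 98.0 and 101 CPM. HMX1, the heme oxygenase that degrades heme, had 29.98 and 32.2 CPM in the TE libraries, against 208 and 243 CPM in the OL libraries (log2 fold change -2.86 ± 0.13 (SE), adjusted p = 2.02e-05). HEM3, the porphobilinogen deaminase, differed by -0.34 ± 0.10. The call of HEM3 was lost whichever of the 4 libraries was left out, with adjusted p between 0.0915 and 0.138. HEM14 was not called without TE library 2, OL library 1 or OL library 2 (adjusted p up to 0.133). With 1 library left out the calls were 0 to 1 higher and 1 lower for heme genes.

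Among 6 hypoxic isoforms and oxygen-responsive regulators, 2 were called lower and 0 higher. AAC3, paired with the ADP/ATP carrier that S. cerevisiae induces without oxygen, had 191 and 158 CPM in the TE libraries, against 680.5 and 696 CPM in the OL libraries (log2 fold change -1.98 ± 0.15 (SE), adjusted p = 0.000138). K. marxianus has 1 gene paired with this entry, and its aerobic libraries were higher again, at 1186 and 1203 CPM. TUP1, a general corepressor, differed by -0.81 ± 0.13. HAP1, the heme-responsive activator, had 0.39 ± 0.15 and did not pass (adjusted p = 0.0668). With T left out of the fit, HAP1 was called (adjusted p = 0.00142). Length correction gave 1 higher and 3 lower (median -0.41) for hypoxic isoforms and regulators. Corrected for length, the log2 fold change was 0.76 for HAP1, now called (adjusted p = 0.00354).

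Transcripts of the respiratory chain were lower in TE for its dehydrogenases and for both cytochrome complexes. Of 6 genes for dehydrogenases that feed the chain, 5 were called lower, and the median was -3.18. CYB2, the L-lactate dehydrogenase of the intermembrane space, had 19.8 and 18.1 CPM in the TE libraries, against 738 and 901 CPM in the OL libraries (log2 fold change -5.43 ± 0.19 (SE), adjusted p = 8.49e-06). DLD1, the D-lactate dehydrogenase, had 44.7 and 32.3 CPM in the TE libraries, against 543 and 591 CPM in the OL libraries (log2 fold change -3.88 ± 0.19 (SE), adjusted p = 2.53e-05). Both lay above their aerobic level in OL and below it in TE, the aerobic libraries holding 329 and 325 CPM of CYB2 and 299 and 291 CPM of DLD1. NDE1, the external NADH dehydrogenase, had 27.6 and 23.0 CPM in the TE libraries, against 282 and 326 CPM in the OL libraries (log2 fold change -3.58 ± 0.23 (SE), adjusted p = 6.94e-05). GUT2, the glycerol-3-phosphate dehydrogenase, differed by -2.77 ± 0.15. DLD2 had -0.65 ± 0.26 and did not pass (adjusted p = 0.0718). DLD2 was called without the T libraries in the fit (adjusted p = 2.21e-06).

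All 8 tested nuclear subunits of cytochrome c oxidase were called lower, with a median of -1.69 and a range of -2.73 to -0.92. Their summed level was 877 and 874 CPM in TE, against 2979 and 3187 CPM in OL. COX4 had 109 and 96.0 CPM in the TE libraries, against 640.1 and 715 CPM in the OL libraries (log2 fold change -2.73 ± 0.20 (SE), adjusted p = 0.000118). COX7, COX12 and COX13 differed by -2.49 ± 0.19, -2.28 ± 0.31 and -1.86 ± 0.16. The count was 8 in each fit that left out 1 library and after length correction. Of the 14 genes of the bc1 complex and cytochrome c, 11 were called lower and 2 higher (median -0.86). CYC1, cytochrome c, had 88.6 and 79.5 CPM in the TE libraries, against 836 and 954 CPM in the OL libraries (log2 fold change -3.41 ± 0.18 (SE), adjusted p = 3.25e-05). CYT1, cytochrome c1, differed by -2.75 ± 0.19 and the Rieske protein RIP1 by -1.81 ± 0.13. The members called higher, CBP6 (1.09 ± 0.14) and BCS1 (0.73 ± 0.13), are factors for translation and assembly of the complex, not subunits. With length corrected, the log2 fold change was 0.68 for CBP6.

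Assembly factors of the oxidase were called in both directions. Of 24, 7 were called higher and 7 lower, which is near the shares over all genes tested, with a median of 0.02. COX15, which makes heme A, had 164 and 140.2 CPM in the TE libraries, against 495 and 541 CPM in the OL libraries (log2 fold change -1.77 ± 0.44 (SE), adjusted p = 0.0127). COA4, CMC2 and COX16, small assembly proteins, were higher by 1.18 ± 0.17, 1.06 ± 0.15 and 1.03 ± 0.20. After length correction 4 assembly factors were called higher and 9 lower. ATP synthase had 3 of 23 genes called higher and 7 lower (median -0.14), against 2 and 11 after length correction. The share called lower was 30.4%, against 26.3% over all genes tested. ATP16, the delta subunit, differed by -0.86 ± 0.17 and ATP4 of the stator by -0.82 ± 0.14. The higher members were STF2, tied to the inhibitor protein (1.69 ± 0.41), the assembly factor FMC1 (1.12 ± 0.13) and ATP18 (0.41 ± 0.13, and -0.05 after length correction). COX15 was not called without TE library 1, TE library 2 or OL library 2, and STF2 and ATP18 were not called without TE library 2, OL library 1 or OL library 2 (adjusted p up to 0.2). Fits that left out 1 library called 4 to 5 higher and 3 to 4 lower for oxidase assembly factors and 1 to 3 higher and 5 to 6 lower for ATP synthase. The length-corrected log2 fold change was 0.71 for COA4, 0.60 for CMC2, 0.59 for COX16 and 0.72 for FMC1.

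Succinate dehydrogenase and fumarate reductases were called lower in 5 of 6 genes (median -1.004). SDH3 and SDH1 differed by -1.58 ± 0.15 and -1.34 ± 0.12. FRD1, the soluble fumarate reductase that reoxidizes flavin when oxygen is absent, had 433 and 378 CPM in the TE libraries, against 796 and 842 CPM in the OL libraries (log2 fold change -1.01 ± 0.15 (SE), adjusted p = 0.0016). Both groups were above its aerobic level of 121 and 122 CPM. Ubiquinone synthesis had 3 of 10 genes called higher and 0 lower, namely COQ10, COQ5 and COQ3, with COQ10 at 1.09 ± 0.16. COQ3 was not called without TE library 2, OL library 1 or OL library 2 (adjusted p up to 0.0848). Length correction gave 4 higher and 1 lower (median 0.16) for ubiquinone genes. Corrected for length, the log2 fold change was 0.71 for COQ10.

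**Figure D2:**
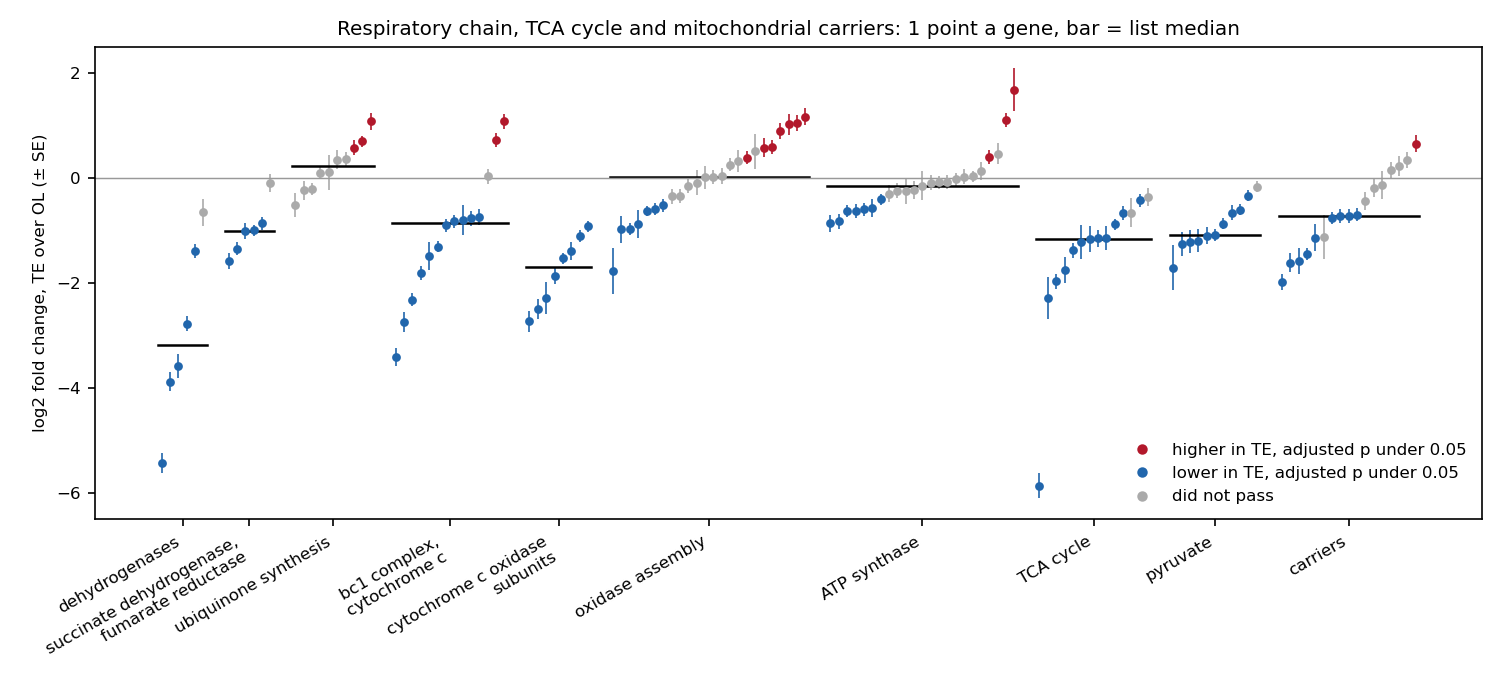
Each point is a gene's log2 fold change of TE over OL with its SE, grouped by list, and the black bars are list medians. Blue points are genes called lower in TE, red points genes called higher and grey points genes that did not pass. All 8 oxidase subunits lie below -0.9, while assembly factors spread on both sides of 0.

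Of 14 enzymes of the mitochondrial TCA cycle, 12 were called lower and 0 higher, with a median of -1.15. The gene paired with CIT3, a mitochondrial citrate synthase, had 0.353 and 0.431 CPM in the TE libraries, against 22.8 and 24.0 CPM in the OL libraries (log2 fold change -5.86 ± 0.24 (SE), adjusted p = 1.45e-05). Its aerobic libraries had 3045 and 3116 CPM, and the TE values rest on few read pairs. The aerobic libraries stood far above OL, and OL above TE. MDH1, the malate dehydrogenase, had 199 and 163 CPM in the TE libraries, against 832 and 939 CPM in the OL libraries (log2 fold change -2.29 ± 0.40 (SE), adjusted p = 0.00297). Its OL libraries were above its aerobic libraries, at 304 and 326 CPM. LSC1 of succinyl-CoA ligase and the malic enzyme MAE1 differed by -1.97 ± 0.14 and -1.75 ± 0.25. KGD2 and FUM1 had -0.66 ± 0.27 and -0.35 ± 0.17 and did not pass. A fit without the T libraries called KGD2 and FUM1 (adjusted p up to 0.000742).

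Of 11 genes of pyruvate use, 10 were called lower and 0 higher (median -1.08). PYC1, pyruvate carboxylase, had 708 and 568 CPM in the TE libraries, against 2047 and 2108 CPM in the OL libraries (log2 fold change -1.70 ± 0.42 (SE), adjusted p = 0.013). PDC1, the pyruvate decarboxylase of ethanol formation, had 3062 and 2269 CPM in the TE libraries, against 6079 and 6273 CPM in the OL libraries (log2 fold change -1.21 ± 0.22 (SE), adjusted p = 0.0034). Its aerobic libraries were at 247 and 235 CPM. PDX1 and LAT1 of the pyruvate dehydrogenase complex differed by -1.25 ± 0.23 and -1.19 ± 0.22. Mitochondrial carriers had 9 of 17 genes called lower and 1 higher (median -0.72). OAC1, the oxaloacetate carrier, differed by -1.61 ± 0.18 and GGC1, the GTP carrier, by -1.58 ± 0.25, and the higher member was FLX1, tied to flavin transport (0.66 ± 0.17). PYC1 did not keep its call when any 1 of the 4 libraries was left out, the adjusted p lying between 0.052 and 0.1. FLX1 was not called without TE library 1, TE library 2 or OL library 1 (adjusted p up to 0.0999). The fits without 1 library gave 0 to 1 higher and 8 to 9 lower for mitochondrial carriers.

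Transcripts of SUC2 and of most genes of hexose transport and glucose sensing were lower in TE. SUC2 (KM6556v0_A005370), paired with the secreted invertase, had 346 and 190.4 CPM in the TE libraries, against 27273 and 30480.0 CPM in the OL libraries (log2 fold change -6.75 ± 0.38 (SE), adjusted p = 4.26e-05). The T libraries were low as well, at 117 and 173 CPM, and the aerobic libraries high, at 15750.0 and 15138 CPM. Among 10 genes of hexose transport and glucose sensing, 8 were called lower and 1 higher (median -1.50). Their summed level was 2243 and 1886 CPM in TE, against 18695 and 18677 CPM in OL.

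HXT7 (KM6556v0_E003720), paired with a high-affinity glucose transporter, had 1135 and 930.4 CPM in the TE libraries, against 14764 and 14360.0 CPM in the OL libraries (log2 fold change -3.82 ± 0.30 (SE), adjusted p = 0.000144). GAL2 (KM6556v0_E003730), paired with the galactose permease, had 208 and 220.3 CPM in the TE libraries, against 2534 and 2820.5 CPM in the OL libraries (log2 fold change -3.65 ± 0.33 (SE), adjusted p = 0.00021). The next gene on chromosome 5, KM6556v0_E003740, is paired with HXT6/HXT4 and had 18.0 and 17.0 CPM in the TE libraries, against 608 and 673 CPM in the OL libraries (log2 fold change -5.19 ± 0.25 (SE), adjusted p = 2.53e-05). The OL libraries were above the TE libraries in all 3. HXT3/HXT1 (KM6556v0_E003760), 2 genes further along, went the other way and had 708 and 559.8 CPM in the TE libraries, against 221 and 246 CPM in the OL libraries (log2 fold change 1.44 ± 0.21 (SE), adjusted p = 0.00143). The gene between them, KM6556v0_E003750, is paired with HXT6/HXT4 too and had -1.57 ± 0.14. HXT5 at the end of that row had -0.03 ± 0.16 and did not pass. Read pairs that map to several genes were not counted, so values of this family are uncertain where its members are near identical. RGT1, the glucose-responsive repressor of hexose transporters, had 24.5 and 20.7 CPM in the TE libraries, against 223 and 228 CPM in the OL libraries (log2 fold change -3.32 ± 0.20 (SE), adjusted p = 5.43e-05).

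Glycolysis had 8 of 14 genes called lower and 0 higher (median -0.66). HXK1, the hexokinase, had 673 and 542 CPM in the TE libraries, against 7174 and 7237 CPM in the OL libraries (log2 fold change -3.57 ± 0.22 (SE), adjusted p = 5.79e-05), while the aerobic libraries had 1484 and 1519 CPM. The activators of glycolytic genes GCR1 and GCR2 differed by -2.09 ± 0.11 and -1.25 ± 0.13, and the pyruvate kinase CDC19 by -0.82 ± 0.25. Members that did not pass include TDH2, the glyceraldehyde-3-phosphate dehydrogenase, at -0.66 ± 0.27, and GPM1, the phosphoglycerate mutase, at 0.29 ± 0.12. With T left out of the fit, TDH2 and GPM1 were called (adjusted p up to 0.0363). The summed glycolytic level was 38872 and 30914 CPM in TE, against 55941 and 58182 CPM in OL. Of 7 pentose phosphate genes 1 was called, RKI1, the ribose-5-phosphate isomerase (-0.53 ± 0.11). CDC19 was not called without TE library 2, OL library 1 or OL library 2, and RKI1 was not called without OL library 2 (adjusted p up to 0.175). Fits that left out 1 library called 0 higher and 4 to 8 lower for glycolysis and 0 higher and 0 to 1 lower for pentose phosphate genes. After length correction the calls were 0 higher and 2 lower (median -0.23) for pentose phosphate genes. The length-corrected log2 fold change was -0.83 for RKI1.

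Of 8 alcohol and butanediol dehydrogenases, 5 were called lower and 1 higher (median -0.64). ADH2 had 93.8 and 63.8 CPM in the TE libraries, against 1166 and 1267 CPM in the OL libraries (log2 fold change -3.95 ± 0.34 (SE), adjusted p = 0.000191). ADH3, the mitochondrial form, had 15.3 and 11.4 CPM in the TE libraries, against 58.2 and 68.3 CPM in the OL libraries (log2 fold change -2.24 ± 0.26 (SE), adjusted p = 0.000578), while its aerobic libraries had 5566 and 5031 CPM. ADH1 had 3572 and 2954 CPM in the TE libraries, against 7173 and 7408 CPM in the OL libraries (log2 fold change -1.16 ± 0.29 (SE), adjusted p = 0.0129). ADH6, an NADPH-dependent reductase of wide substrate range, was the higher member, with 143 and 129 CPM in the TE libraries, against 22.4 and 21.8 CPM in the OL libraries (log2 fold change 2.62 ± 0.25 (SE), adjusted p = 0.000259). K. marxianus and S. cerevisiae expanded this family separately, so the numbers carried over from S. cerevisiae do not fix which enzyme is meant. The call of ADH1 was lost whichever of the 4 libraries was left out, with adjusted p between 0.0514 and 0.102. Leaving out 1 library gave 1 higher and 3 lower for alcohol dehydrogenases.

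Glycerol metabolism split evenly, with 3 of 8 genes called higher and 3 lower. The glycerol kinase GUT1 and the dehydrogenase GUT2 were lower, GUT1 with -1.58 ± 0.16. GCY1, a glycerol dehydrogenase, had 728 and 709 CPM in the TE libraries, against 115 and 127 CPM in the OL libraries (log2 fold change 2.57 ± 0.13 (SE), adjusted p = 2.56e-05). DAK1, the dihydroxyacetone kinase, had 1.32 ± 0.18 and the glycerol symporter STL1 0.97 ± 0.14, both higher. The channel FPS1 was lower, with -0.42 ± 0.13. The enzymes that make glycerol, paired with GPD1/GPD2 and GPP1, had 0.14 ± 0.13 and -0.03 ± 0.14 and did not pass. FPS1 was not called without TE library 1, TE library 2 or OL library 2 (adjusted p up to 0.219). With length corrected, the log2 fold change was -0.23 for FPS1, no longer called (adjusted p = 0.171).

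Transcripts of trehalose and glycogen metabolism were lower, with 11 of 13 genes called lower, 0 higher and a median of -1.33. GAC1, which targets a phosphatase to glycogen synthase, had 15.05 and 14.1 CPM in the TE libraries, against 88.5 and 90.6 CPM in the OL libraries (log2 fold change -2.62 ± 0.23 (SE), adjusted p = 0.000205). TPS3 of the trehalose synthase complex had 159 and 124 CPM in the TE libraries, against 546 and 620.0 CPM in the OL libraries (log2 fold change -2.04 ± 0.15 (SE), adjusted p = 0.000125). PGM1, phosphoglucomutase, and GLG2, the glycogen primer, differed by -2.08 ± 0.16 and -1.91 ± 0.27. NTH2, a trehalase, had -0.06 ± 0.10 and did not pass. The median gene length of the list was 2460.0 bases, and after length correction 10 were called lower with a median of -0.88.

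Genes of nitrogen assimilation, fed here by urea, were lower. Of 17 genes, 11 were called lower and 1 higher (median -1.16), and their summed level was 8681 and 7045 CPM in TE, against 23030.0 and 22988 CPM in OL. GLT1, glutamate synthase, had 683 and 581 CPM in the TE libraries, against 3347 and 3541 CPM in the OL libraries (log2 fold change -2.45 ± 0.14 (SE), adjusted p = 5.35e-05). The gene paired with GDH3, an NADP-dependent glutamate dehydrogenase, had 3275 and 2662 CPM in the TE libraries, against 10485 and 10237 CPM in the OL libraries (log2 fold change -1.80 ± 0.21 (SE), adjusted p = 0.000564). UGA1, the GABA transaminase, differed by -2.76 ± 0.22 and PUT4, the proline permease, by -1.80 ± 0.44. The higher member was GDH2, the NAD-dependent glutamate dehydrogenase that degrades glutamate (0.46 ± 0.11). PUT4 did not keep its call when any 1 of the 4 libraries was left out, the adjusted p lying between 0.0512 and 0.0944. GDH2 was not called without TE library 2, OL library 1 or OL library 2 (adjusted p up to 0.107). Fits that left out 1 library called 0 to 1 higher and 6 to 7 lower for nitrogen genes. The length-corrected log2 fold change was 0.81 for GDH2.

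Genes that move and break down acyl and acetyl units were called lower in many cases. In the carnitine shuttle, 4 of 5 genes were called lower (median -1.58). CRC1, the mitochondrial carnitine carrier, had 2.12 and 2.16 CPM in the TE libraries, against 96.8 and 104.8 CPM in the OL libraries (log2 fold change -5.55 ± 0.16 (SE), adjusted p = 3.32e-06). YAT2, a cytosolic carnitine acetyltransferase, had 56.3 and 55.5 CPM in the TE libraries, against 429 and 443 CPM in the OL libraries (log2 fold change -2.96 ± 0.29 (SE), adjusted p = 0.000296). CAT2, the mitochondrial and peroxisomal transferase, had 0.21 ± 0.33 and did not pass. Peroxisomal beta-oxidation had 7 of 12 genes called lower and 1 higher, PXA1, a subunit of the fatty acid importer (0.73 ± 0.11). CTA1, the peroxisomal catalase, had 19.5 and 19.0 CPM in the TE libraries, against 224 and 240.4 CPM in the OL libraries (log2 fold change -3.59 ± 0.24 (SE), adjusted p = 8.55e-05). The thiolase POT1 and the acyl-CoA synthetase FAA2 differed by -1.39 ± 0.26 and -1.31 ± 0.21. POX1 and FOX2, the first enzymes of the pathway, had -0.34 ± 0.42 and -0.30 ± 0.36 and did not pass. POX1 and FOX2 were called without the T libraries in the fit (adjusted p up to 0.05). They were low in both groups, POX1 at 15.05 and 14.2 CPM in TE and 19.1 and 18.0 CPM in OL, while the aerobic libraries had 4546 and 4440.3 CPM. Length correction gave 1 higher and 5 lower (median -0.27) for beta-oxidation.

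Of 12 genes of the glyoxylate cycle and gluconeogenesis, 7 were called lower (median -0.87). MDH2, the cytosolic malate dehydrogenase, had 434 and 344 CPM in the TE libraries, against 1437 and 1559 CPM in the OL libraries (log2 fold change -1.94 ± 0.29 (SE), adjusted p = 0.00157). CAT8, an activator of gluconeogenic genes, and SFC1, the succinate-fumarate carrier, differed by -1.57 ± 0.19 and -1.44 ± 0.11, and the isocitrate dehydrogenase IDP2 by -1.22 ± 0.39. PCK1 and FBP1, the key enzymes of gluconeogenesis, had -0.37 ± 0.21 and 0.06 ± 0.25 and did not pass. A fit without the T libraries called PCK1 (adjusted p = 0.00611). Among 10 genes of acetate use and transport, 3 were called lower and 1 higher, ATO2 (1.41 ± 0.19). ADY2, an acetate transporter, had 14.7 and 15.5 CPM in the TE libraries, against 157 and 165 CPM in the OL libraries (log2 fold change -3.41 ± 0.11 (SE), adjusted p = 7.65e-06). ACS1, an acetyl-CoA synthetase, differed by -0.75 ± 0.22. The calls of IDP2 and ACS1 were lost whichever of the 4 libraries was left out, with adjusted p between 0.0578 and 0.195. Corrected for length, the log2 fold change was -0.58 for ACS1, no longer called (adjusted p = 0.0541).

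Oxidative stress genes were called in both directions, 11 of 24 higher and 7 lower (median 0.47). The catalases went opposite ways. CTT1, the cytosolic catalase, had 830.0 and 703 CPM in the TE libraries, against 50.3 and 51.8 CPM in the OL libraries (log2 fold change 3.91 ± 0.24 (SE), adjusted p = 6.18e-05). CTA1, in the peroxisome, was lower as given above. AHP1, a thiol peroxidase, had 725 and 799.7 CPM in the TE libraries, against 163 and 195 CPM in the OL libraries (log2 fold change 2.09 ± 0.14 (SE), adjusted p = 9.38e-05). TRX2, a thioredoxin, differed by 1.70 ± 0.15. SOD1 and SOD2, the superoxide dismutases, had 0.52 ± 0.24 and -0.47 ± 0.18, and YAP1, the regulator of the peroxide response, 0.09 ± 0.16. These 3 did not pass. With T left out of the fit, SOD1 and SOD2 were called (adjusted p up to 0.00263). After length correction 8 were called higher and 8 lower, with a median of 0.13. The fits without 1 library gave 8 to 10 higher and 3 to 7 lower for oxidative stress genes. Under length correction the log2 fold change was -0.80 for SOD2, now called (adjusted p = 0.0123).

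Of 22 heat shock proteins and chaperones, 6 were called higher (27.3%) and 3 lower (13.6%), with a median of -0.05. Over all genes tested, 25.7% were called higher and 26.3% lower. HSP31, a methylglyoxalase chaperone, had 26.8 and 19.5 CPM in the TE libraries, against 2.36 and 2.22 CPM in the OL libraries (log2 fold change 3.33 ± 0.34 (SE), adjusted p = 0.000361). HSP12, a membrane-bound stress protein, had 722 and 579.8 CPM in the TE libraries, against 197 and 261 CPM in the OL libraries (log2 fold change 1.51 ± 0.44 (SE), adjusted p = 0.0252). HSP26 and YDJ1 differed by 1.38 ± 0.26 and 1.27 ± 0.11. HSF1, the heat shock factor itself, was lower, with -1.15 ± 0.16, as were the chaperones SIS1 (-0.66 ± 0.21) and SSA3 (-0.48 ± 0.15). The general chaperones HSP104 and HSP82 had -0.02 ± 0.29 and -0.40 ± 0.23 and did not pass. HSP82 was called without the T libraries in the fit (adjusted p = 0.000244). HSP12, SIS1 and SSA3 did not keep their calls when any 1 of the 4 libraries was left out, the adjusted p lying between 0.0613 and 0.21. With 1 library left out the calls were 4 to 5 higher and 1 lower for chaperones. Corrected for length, the log2 fold change was 1.06 for HSP12 and -0.18 for SSA3, no longer called (adjusted p up to 0.385), and 0.76 for HSP104, now called (adjusted p = 0.0442).

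Iron genes split (median -0.02), with 5 of 21 called higher (23.8%) and 7 lower (33.3%), against 25.7% and 26.3% over all genes tested. CTH1, which degrades mRNAs of iron-using proteins when iron is short, had 230.2 and 211 CPM in the TE libraries, against 24.0 and 26.7 CPM in the OL libraries (log2 fold change 3.12 ± 0.12 (SE), adjusted p = 1.05e-05). FRE4, a ferric reductase, was the highest member, at 4.49 ± 0.60, and its TE libraries lay above all 6 other K. marxianus libraries, aerobic ones included (70.3 and 73.2 CPM). FET4, a low-affinity iron transporter, had 449.6 and 531 CPM in the TE libraries, against 134 and 135 CPM in the OL libraries (log2 fold change 1.87 ± 0.14 (SE), adjusted p = 0.000118). ATX1, a copper chaperone, and FRE8 were higher by 1.81 ± 0.21 and 0.88 ± 0.20. FET3 and FTR1, the oxygen-using high-affinity uptake pair, did not pass. FET3, the oxidase, had 1236 and 907 CPM in the TE libraries, against 656 and 573 CPM in the OL libraries (log2 fold change 0.80 ± 0.79 (SE), adjusted p = 0.427). FTR1, the permease, had 0.91 ± 0.53 (adjusted p = 0.186). The groups of neither gene overlapped, and the 2 TE libraries of FET3 were unequal. A fit without the T libraries called FET3 and FTR1 (adjusted p up to 0.000105). HMX1, given above, and the activator AFT1 (-1.09 ± 0.10) were among the lower members.

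In iron-sulfur cluster assembly, 3 of 18 genes were called higher, FMP23, tied to iron homeostasis in mitochondria (4.98 ± 0.27), BOL1 (1.33 ± 0.19) and MGE1 (0.31 ± 0.10). The 4 lower ones were the ferredoxin YAH1 (-1.17 ± 0.11), the exporter ATM1 (-0.97 ± 0.24), the co-chaperone JAC1 (-0.83 ± 0.14) and the glutaredoxin GRX5 (-0.40 ± 0.12). After length correction 2 were higher and 9 lower. With any 1 of the 4 libraries left out, MGE1, ATM1 and GRX5 no longer passed (adjusted p between 0.0598 and 0.221). FRE8 was not called without TE library 1 or OL library 1 (adjusted p up to 0.0642). The fits without 1 library gave 2 higher and 2 lower for iron-sulfur assembly. Under length correction the log2 fold change was 0.87 for BOL1 and -0.81 for GRX5, and 0.03 for MGE1, no longer called (adjusted p = 0.864).

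Genes of protein synthesis and turnover were higher in TE. Of 77 cytosolic ribosomal protein genes, 72 were called higher and 0 lower, with a median of 1.07. Their summed level was 182240.0 and 192560.0 CPM in TE, against 89686 and 87854 CPM in OL. RPL29 had 2494 and 2966 CPM in the TE libraries, against 512 and 534 CPM in the OL libraries (log2 fold change 2.38 ± 0.31 (SE), adjusted p = 0.000881). RPL38, RPL31B and RPS10A differed by 1.91 ± 0.18, 1.88 ± 0.22 and 1.85 ± 0.13. Members that did not pass include RPL3 and RPP0, at -0.34 ± 0.16 and -0.03 ± 0.17. RPL3 was called lower when TE and OL alone were fitted (edgeR, adjusted p = 0.0185) and when T was left out of the fit (adjusted p = 0.00212). After length correction the count was 65 and the median 0.83.

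Ribosome biogenesis factors were called higher in 58 of 98 genes and lower in 1, UTP22 (-0.49 ± 0.17). ESF2 had 172 and 171 CPM in the TE libraries, against 23.8 and 25.6 CPM in the OL libraries (log2 fold change 2.79 ± 0.36 (SE), adjusted p = 0.000898). Leaving out 1 library gave 27 to 42 higher members. Mitochondrial ribosomal proteins were called higher in 42 of 73 genes and lower in 2, MRPL40 and RSM26 (median 0.46). MRP49 and SWS2 differed by 1.39 ± 0.14 and 1.298 ± 0.17. Their median gene length was 624 bases, and the count was 13 after length correction, with 6 lower and a median of 0.13. The proteasome had 24 of 32 subunit genes called higher (median 0.69) and 2 lower, RPT1 and RPN1. PRE7, a core subunit, had 470.2 and 531 CPM in the TE libraries, against 183 and 192 CPM in the OL libraries (log2 fold change 1.42 ± 0.20 (SE), adjusted p = 0.00134). PRE1 and RPN8 differed by 1.32 ± 0.20 and 1.19 ± 0.11. The calls of UTP22, RSM26 and RPN1 were lost whichever of the 4 libraries was left out, with adjusted p between 0.0673 and 0.26. With 1 library left out the calls were 24 to 34 higher and 1 lower for mitochondrial ribosomal proteins and 19 to 22 higher and 1 lower for proteasome genes. Length correction gave 69 higher and 0 lower (median 0.74) for biogenesis factors and 22 higher and 1 lower (median 0.56) for proteasome genes. Corrected for length, the log2 fold change was -0.71 for RSM26, and 0.00 for UTP22 and -0.04 for RPN1, no longer called (adjusted p up to 0.99).

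**Figure D3:**
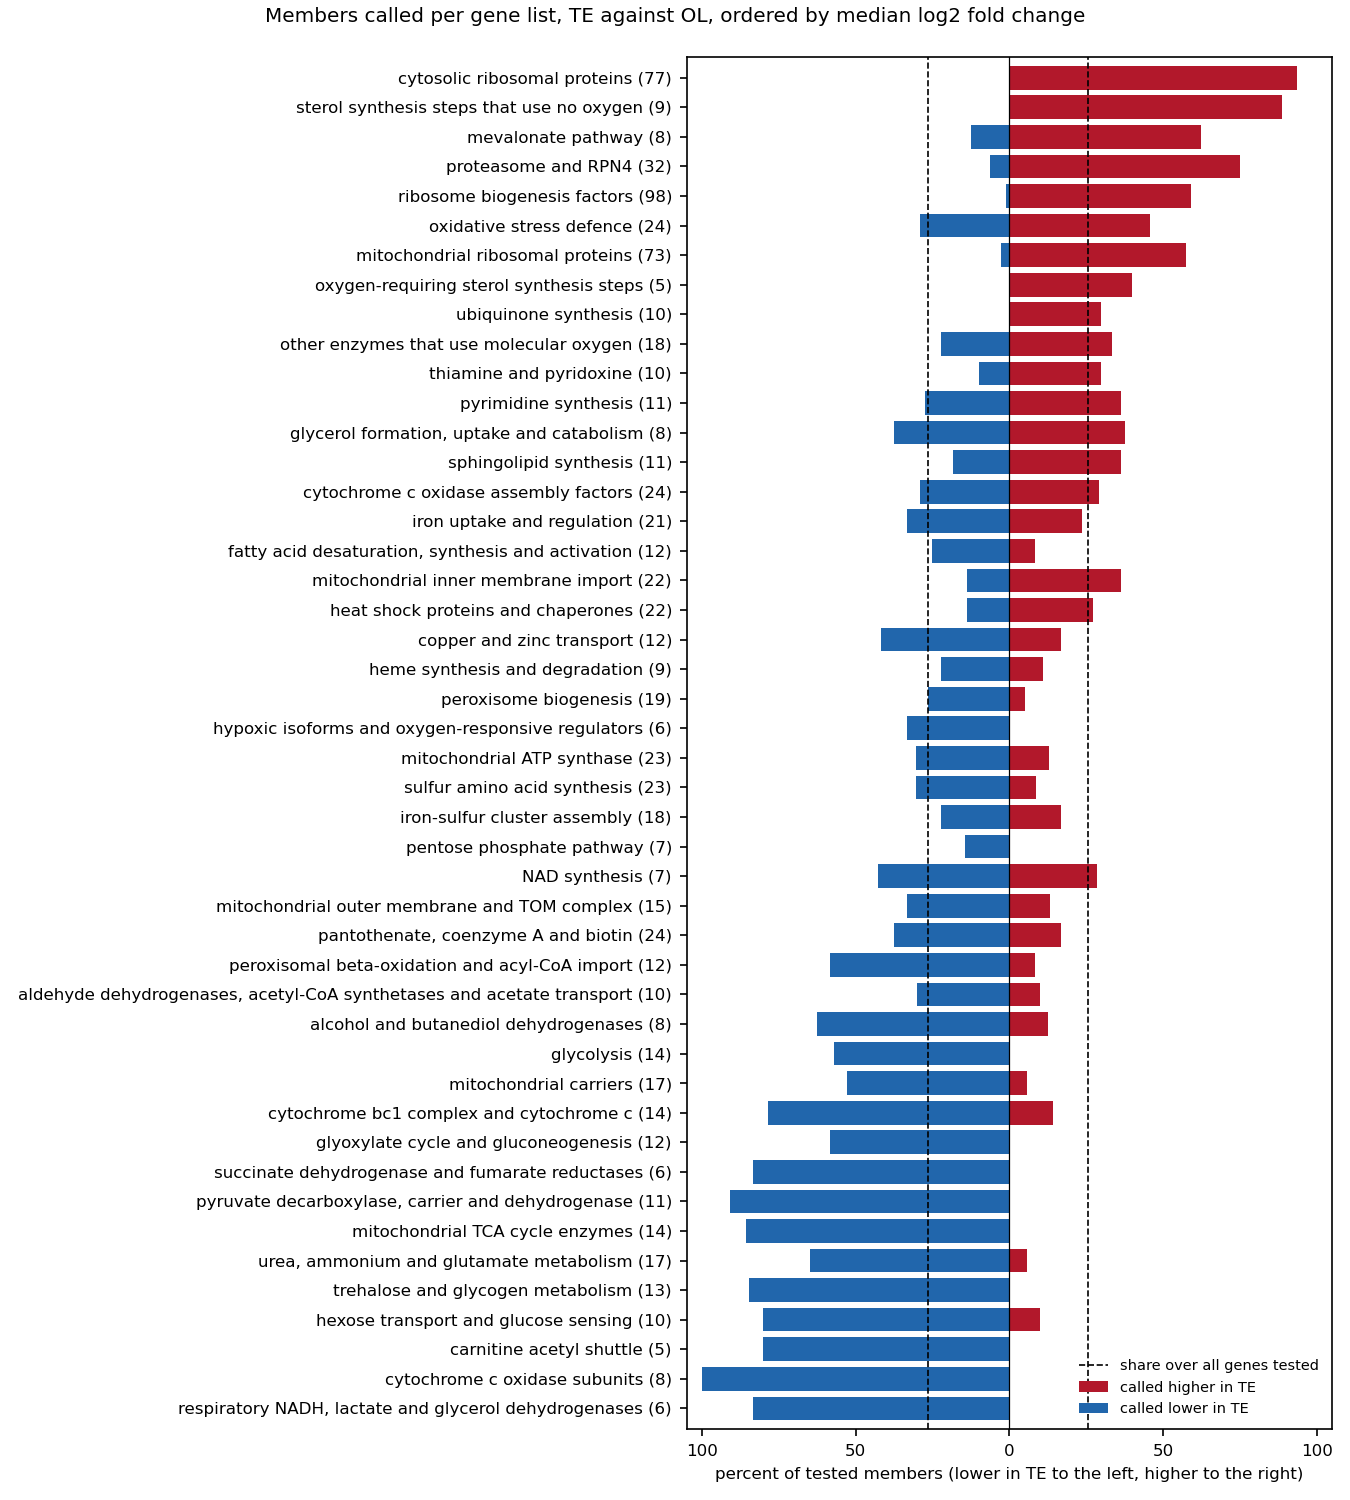
For each gene list with at least 5 tested members (number in brackets), the bar to the right is the percent of members called higher in TE and the bar to the left the percent called lower, and dashed lines mark 25.7% and 26.3%, the shares over all genes tested. Ribosomal proteins and sterol steps without oxygen lead at the top, and oxidase subunits and dehydrogenases stand at the bottom.

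The 15 genes of largest change in each direction, among called genes above a mean of 10 CPM in TE or OL, include several without an S. cerevisiae entry. On the higher side, PGU1 (KM6556v0_A005350, chromosome 1, bases 1076666 to 1077863 of the authors' CBS6556 annotation), paired with a secreted polygalacturonase that cuts pectin, had 4968 and 3662 CPM in the TE libraries, against 357 and 406 CPM in the OL libraries (log2 fold change 3.50 ± 0.51 (SE), adjusted p = 0.00141). It lies 1 gene away from SUC2 (chromosome 1, bases 1079987 to 1082835), another secreted hydrolase gene, which moved the other way, and FMP23 is at chromosome 1, bases 1088805 to 1089341. INO1, the inositol-3-phosphate synthase, had 256 and 263 CPM in the TE libraries, against 26.7 and 27.0 CPM in the OL libraries (log2 fold change 3.27 ± 0.39 (SE), adjusted p = 0.00063), and OL was its lowest group, the aerobic libraries having 458 and 447 CPM. IRC25, a proteasome assembly chaperone, and RTC3 had 3.16 ± 0.27 and 3.002 ± 0.31. KM6556v0_A006970, whose annotation terms name glutathione peroxidase activity, had 97.7 and 140.1 CPM in the TE libraries, against 8.14 and 10.2 CPM in the OL libraries (log2 fold change 3.69 ± 0.35 (SE), adjusted p = 0.000276).

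Others on the higher side carry no S. cerevisiae entry. KM6556v0_A007200, annotated with terms for an RNA polymerase II transcription factor, had 4.14 ± 0.52. Its OL libraries were below both its TE and its aerobic libraries. KM6556v0_D000980, annotated for membrane transport, had 3.39 ± 0.76 and KM6556v0_H003760 3.276 ± 0.85, and the T libraries of both were far apart from each other, at 118 and 17.6 CPM and 781 and 6634 CPM. KM6556v0_C003980 and KM6556v0_A000080 had 3.68 ± 0.18 and 3.18 ± 0.20. KM6556v0_D000980 was not called without OL library 1 or OL library 2, and KM6556v0_H003760 was not called without TE library 2, OL library 1 or OL library 2 (adjusted p up to 0.09).

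On the lower side, KM6556v0_D001700, with no annotated role, had the lowest log2 fold change, -8.35 ± 0.22, and an aerobic level of 249 and 251 CPM. In 3 transporter-annotated genes both the aerobic and the OL levels were high. KM6556v0_A008590 had 12.8 and 10.5 CPM in the TE libraries, against 943 and 852 CPM in the OL libraries (log2 fold change -6.26 ± 0.28 (SE), adjusted p = 2.02e-05), with 1250.3 and 1244 CPM in the aerobic libraries. KM6556v0_C000020 had 18.6 and 11.6 CPM in the TE libraries, against 949 and 889 CPM in the OL libraries (log2 fold change -5.92 ± 0.29 (SE), adjusted p = 2.71e-05). It overlaps another annotated gene and is next to KM6556v0_C000010 on the opposite strand of chromosome 3, which differed by -5.64 ± 0.16. KM6556v0_H004530 at chromosome 8, bases 928238 to 928891 is the third of them. Its neighbour KM6556v0_H004540 on the opposite strand differed by -6.78 ± 0.36. KM6556v0_A006200 had 0.118 and 0.575 CPM in the TE libraries, against 27.3 and 27.4 CPM in the OL libraries, its TE level resting on few read pairs (log2 fold change -6.34 ± 0.35 (SE), adjusted p = 3.72e-05).

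Some genes were highest in OL. OXP1, the 5-oxoprolinase of the glutathione cycle, had 35.7 and 20.0 CPM in the TE libraries, against 878 and 919 CPM in the OL libraries (log2 fold change -5.00 ± 0.29 (SE), adjusted p = 4.63e-05). Its T libraries had 19.7 and 18.5 CPM and its aerobic libraries 55.5 and 45.0 CPM. KM6556v0_B000050 had 41.4 and 31.5 CPM in the TE libraries, against 1206 and 1393 CPM in the OL libraries (log2 fold change -5.15 ± 0.48 (SE), adjusted p = 0.000255), with 129 and 47.2 CPM in T and 205 and 167 CPM in the aerobic libraries. KM6556v0_D003440 had 2.57 and 2.35 CPM in T and 15.3 and 13.3 CPM in the aerobic libraries, and differed by -7.64 ± 0.20 between TE and OL. For these 3, the OL libraries stood above all 6 others. The same held for KM6556v0_D001700, CYB2, SUC2 and the HXT6/HXT4 gene KM6556v0_E003740. By a small margin it also held for KM6556v0_H004530 and KM6556v0_C000020.

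**Figure D4:**
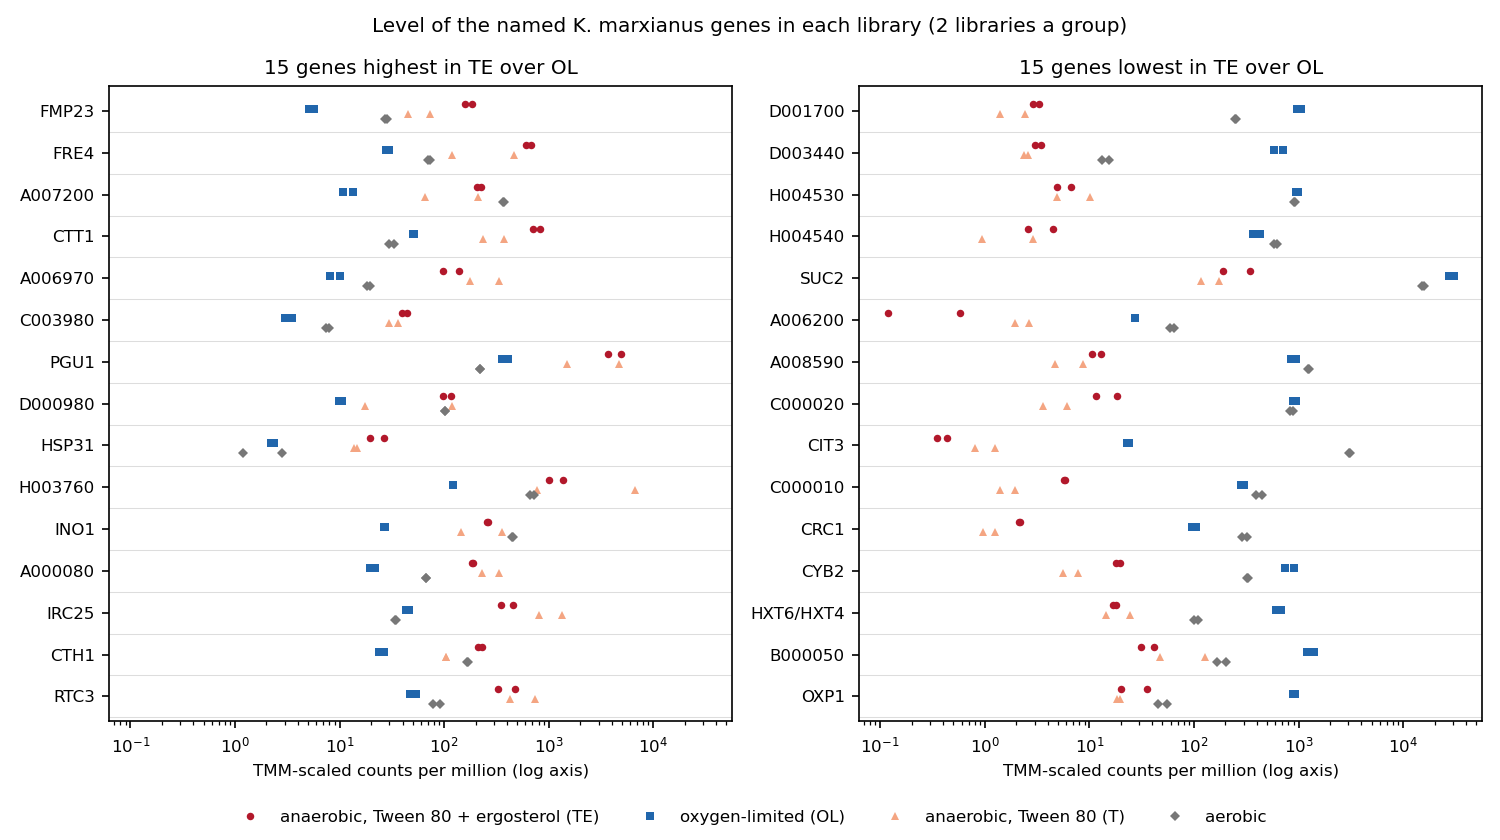
TMM-scaled CPM on a log axis, 1 point a library, for the 15 genes most increased (left) and the 15 most decreased (right) in TE over OL. The TE points lie apart from the OL points in each row by the choice of genes. OXP1, B000050 and D003440 are highest in OL among the 4 groups. So are D001700, HXT6/HXT4, CYB2 and SUC2 and, by a small margin, H004530 and C000020.

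Genes without an S. cerevisiae entry were called lower more often than higher. Of 1164 tested, 199 were called higher, which is 17.1%, and 383 lower, which is 32.9%, with a median of -0.21. After length correction these counts were 153 and 392. The fits without 1 library gave 114 to 141 higher and 255 to 293 lower for genes without an entry.

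The same comparison could be made in S. cerevisiae, and the difference between the species was tested on 3885 genes matched 1 to 1. It was called for 46.4% of them, above 0 (K. marxianus minus S. cerevisiae) for 23.1% and below 0 for 23.3%. The run code differs between TE and OL in S. cerevisiae as well. Oxygen supply and run thus cannot be told apart in either yeast or in the species difference. For the oxygen-requiring sterol steps, 0 of 5 matched genes had a called difference above 0 and 4 below 0, with medians of 0.35 in K. marxianus and 1.59 in S. cerevisiae. In glycolysis, 0 of 13 matched genes had a called difference above 0 and 13 below 0, with medians of -0.66 in K. marxianus and 0.94 in S. cerevisiae. For cytochrome c oxidase subunits no difference was called in 8 genes, with medians of -1.69 in K. marxianus and -1.86 in S. cerevisiae. In iron uptake and regulation, 11 of 20 matched genes had a called difference above 0 and 1 below 0. Cytosolic ribosomal proteins had 41 of 56 genes called above 0 and 1 below 0. Mitochondrial ribosomal proteins had 62 of 73 called above 0, with medians of 0.46 in K. marxianus and -0.76 in S. cerevisiae. Values of single genes are given in the closing section. A length correction within each species gave 1472 called differences in place of 1803, with 1149 called by both.

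**Figure D5:**
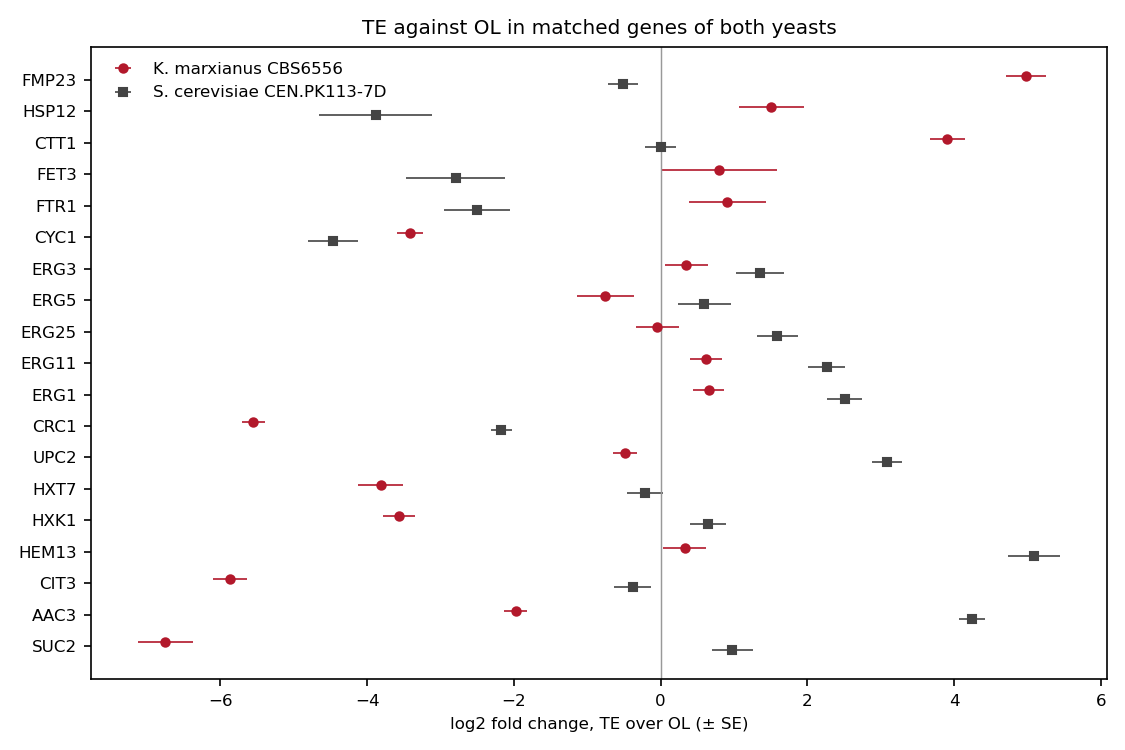
Log2 fold change of TE over OL with its SE for matched genes, K. marxianus as red circles (SE of the fit of its 8 libraries) and S. cerevisiae as dark squares (SE of the joint fit of 16 libraries). AAC3, SUC2 and UPC2 lie on opposite sides of 0, while CYC1 is below -3 in both yeasts.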

How the data were processed

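Gene expression was measured by poly(A) RNA-seq. The authors deposited raw counts of read pairs per gene made with featureCounts 1.6.0, per the file headers, with both ends required to map, no strand option, and pairs that mapped to several genes or overlapped several genes not counted. Bowtie 1.2.1.1, SAMtools 1.3.1 and edgeR 3.28.1 are named in the submitters' processing notes. Gene lengths and coordinates are those of the authors' annotation of CBS6556, per the file headers, and 91.5% of the lengths are multiples of 3, so that they are mostly coding lengths. The authors also deposited tables with a log2 fold change, a log2 mean level, a likelihood ratio score, a p-value and its -log10. The K. marxianus table numbered for this comparison held the same values as the table of another comparison in all 5143 rows, and none of these tables is used for a result.

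Counts were tested with edgeR 4.0.16 (R 4.3.3) by its quasi-likelihood test with Benjamini-Hochberg adjustment over all 5143 genes tested, after filterByExpr and TMM scaling. The 8 K. marxianus libraries were fitted as 4 groups of 2, which leaves 4 residual degrees of freedom. A gene was called at an adjusted p under 0.05. The species difference came from 1 fit of 16 libraries of 3885 matched genes, K. marxianus minus S. cerevisiae. With 2 libraries against 2 an exact permutation test cannot go below p = 0.333. Simulated counts shaped on the 8 K. marxianus libraries were used to test its fit, a difference of 2 contrasts and the length correction. The simulated TE and OL counts differed by no length trend, so the removal of such a trend was not tested. The species fit of 16 libraries was not itself simulated. The length correction adds a lowess curve (span 0.3) against log2 gene length to each library's offset. The curve is fitted to log2 CPM minus the gene's mean log2 CPM over the fitted libraries of its species. The rule for named genes takes the 15 largest changes in each direction, where a gene is called, averages 10 CPM or more in TE or in OL and shows no overlap, and up to 4 called members with the largest change in each of 48 gene lists. Other genes are named for their known role, because a list had few called members in a direction, or because they did not pass, a choice made with their values in view. The comparison and the lists were chosen with earlier results of these data known. Alternatives were RLE scaling, no filter, smaller fits, each library left out, overlapping genes left out, a test against a log2 fold change of 1, DESeq2 1.42.0 and the length correction, which was chosen after seeing the data. Replicate numbers were given in accession order and pair nothing, and TE and OL share no run code.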

Additional observations from a re-analysis of the deposited data

Results flagged for a closer look

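For 17 of 19 matched genes set side by side, the log2 fold change of TE over OL differed between the yeasts by the edgeR quasi-likelihood test of the difference itself (K. marxianus minus S. cerevisiae, ± SE), adjusted over 3885 genes of which 46.4% were called. The genes were chosen with their K. marxianus values known. They carry the deposited pairing with S. cerevisiae entries, and whether the genes of a pair share a role was not tested. Sterol enzymes that use oxygen had lower changes in K. marxianus. ERG1 differed by -1.85 ± 0.31 (adjusted p = 0.000555), with log2 fold changes of 0.65 in K. marxianus and 2.51 in S. cerevisiae. ERG11 differed by -1.64 ± 0.34 (adjusted p = 0.00195), ERG25 by -1.63 ± 0.38 (adjusted p = 0.00397) and ERG5 by -1.34 ± 0.51 (adjusted p = 0.0466). ERG5 was not called under 9 of the alternatives. ERG3, the remaining one, did not pass, with -0.996 ± 0.46 (adjusted p = 0.0914). Their activator UPC2 differed by -3.57 ± 0.27 (adjusted p = 1.75e-06), with -0.48 in K. marxianus and 3.09 in S. cerevisiae. In S. cerevisiae UPC2 had 111 and 96.7 CPM in the TE libraries, against 9.75 and 15.1 CPM in the OL libraries.

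Both hypoxic genes of S. cerevisiae in this set differed as well. HEM13 differed by -4.77 ± 0.45 (adjusted p = 1.00e-05), with 0.33 in K. marxianus and 5.09 in S. cerevisiae, and in S. cerevisiae it had 1299 and 1231 CPM in the TE libraries, against 26.4 and 49.2 CPM in the OL libraries. AAC3 differed by -6.22 ± 0.23 (adjusted p = 1.24e-08), with -1.98 in K. marxianus and 4.24 in S. cerevisiae, and in S. cerevisiae it had 98.9 and 106 CPM in the TE libraries, against 6.05 and 5.00 CPM in the OL libraries. In both, the S. cerevisiae TE libraries stood far above its OL libraries. The K. marxianus gene paired with AAC3 was highest in its aerobic libraries, at 1186 and 1203 CPM. In sugar use, SUC2 differed by -7.73 ± 0.43 (adjusted p = 2.06e-07), with -6.75 in K. marxianus and 0.98 in S. cerevisiae. HXK1 differed by -4.22 ± 0.35 (adjusted p = 3.99e-06) and HXT7 by -3.60 ± 0.36 (adjusted p = 1.69e-05). In mitochondria, CIT3 differed by -5.49 ± 0.54 (adjusted p = 1.48e-05) and CRC1 by -3.38 ± 0.23 (adjusted p = 6.67e-07), while cytochrome c, CYC1, was lower in both yeasts, with -3.41 in K. marxianus and -4.46 in S. cerevisiae, and its difference of 1.05 ± 0.43 (adjusted p = 0.0594) did not pass.

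The remaining genes had a difference above 0. FMP23 differed by 5.50 ± 0.30 (adjusted p = 2.03e-07), FET3 by 3.595 ± 0.91 (adjusted p = 0.0065) and FTR1 by 3.41 ± 0.62 (adjusted p = 0.000836). In S. cerevisiae FET3 had 38.5 and 34.5 CPM in the TE libraries, against 324 and 193 CPM in the OL libraries. CTT1 differed by 3.91 ± 0.29 (adjusted p = 1.34e-06), with 3.91 in K. marxianus and 0.00 in S. cerevisiae. HSP12 differed by 5.39 ± 1.03 (adjusted p = 0.00119), and its S. cerevisiae libraries, with 65.7 and 91.3 CPM in the TE libraries, against 244 and 2121 CPM in the OL libraries, were far apart within OL. Its difference was 6.25 without the first of them and 3.12 without the other, and passed both times. TE and OL differ in run code in both yeasts, so oxygen supply and run cannot be told apart in these differences. Their cause was not tested.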

How the results depend on the processing

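The 2674 calls between TE and OL became 1658 to 1996 when 1 library was left out, the lone library of its group being assumed to vary like the others. A test against a log2 fold change of 1 called 391 genes, and 1082 of the called genes had an absolute log2 fold change above 1. The other alternatives stayed within 1.5 times, from 2265 without the aerobic group to 3839 without the T group and 3688 with TE and OL alone. RLE scaling called 2674, no filter 2659, overlapping genes left out 2643, DESeq2 2798 and length correction 2429, of which 2048 were among the 2674. The 1803 species differences became 1403 to 1972 with 1 library left out and 1472 after length correction, 1149 of them among the 1803. Of 223 called genes named in the text, 56 lost their call without at least 1 library, 36 without TE library 1, 47 without TE library 2 and 45 without each of the OL libraries in turn. Without the aerobic group 18 of them lost their call, and 18 after length correction, where ATP18 turned to -0.053. Of 31 genes not called, 16 were called with TE and OL alone and 20 without T. The difference of CYC1 (1.57) and of ERG3 (-1.55) between the yeasts passed without 1 S. cerevisiae OL library. The cause was not tested. No paired analysis was possible because the codes in the titles pair TE libraries with T libraries, while TE and OL share no run code and only 1 of the parts that follow it.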

Other observations

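Genes that carry proteins into mitochondria were called in both directions. Among 22 genes of the inner membrane import machinery, 8 were called higher in TE and 3 lower. The small chaperones of the intermembrane space were among the higher ones, with TIM8 at 185 and 283 CPM in the TE libraries, against 74.6 and 75.2 CPM in the OL libraries (log2 fold change 1.64 ± 0.25 (SE), adjusted p = 0.00185, edgeR). TIM9 and TIM10 differed by 1.63 ± 0.14 and 1.102 ± 0.17. TIM50, a receptor of the inner membrane translocase, was lower, with -1.22 ± 0.27. After length correction 4 were higher and 6 lower. In the outer membrane 2 of 15 were higher, SAM37 and TOM7, and 5 lower, with OM14 at -1.65 ± 0.17 and OM45 at -1.56 ± 0.26. TIM50 was not called without TE library 2, and SAM37 was not called without OL library 2 (adjusted p up to 0.0684). Leaving out 1 library gave 6 to 7 higher and 1 to 2 lower for inner membrane import and 1 to 2 higher and 4 lower for outer membrane genes. After length correction the calls were 1 higher and 6 lower (median -0.43) for outer membrane genes. With length corrected, the log2 fold change was 0.64 for TIM10 and 0.80 for TOM7, no longer called (adjusted p up to 0.0541).

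Vitamin and cofactor genes were called in both directions as well. VHT1, the biotin transporter, had 878 and 698 CPM in the TE libraries, against 165 and 149.6 CPM in the OL libraries (log2 fold change 2.32 ± 0.60 (SE), adjusted p = 0.0154, edgeR). Of 24 genes for pantothenate, coenzyme A and biotin, 4 were higher and 9 lower. TNA1, the nicotinic acid transporter, had 378 and 414 CPM in the TE libraries, against 2088 and 2000.4 CPM in the OL libraries (log2 fold change -2.37 ± 0.22 (SE), adjusted p = 0.00023). PNC1, the nicotinamidase that recycles nicotinamide, had 1.34 ± 0.16, in a list of 7 NAD genes with 2 higher and 3 lower. Thiamine and pyridoxine genes had 3 of 10 higher and 1 lower. With any 1 of the 4 libraries left out, VHT1 no longer passed (adjusted p between 0.0531 and 0.0941). Fits that left out 1 library called 1 to 2 higher and 3 to 6 lower for coenzyme A and biotin genes, 1 to 2 higher and 2 lower for NAD genes and 0 to 2 higher and 0 to 1 lower for thiamine and pyridoxine genes. After length correction the calls were 2 higher and 10 lower (median -0.38) for coenzyme A and biotin genes.

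Fatty acid synthesis and activation had 1 of 12 genes called higher, FAT1, tied to uptake and activation (0.47 ± 0.12), and 3 lower, namely FAS2 (-0.99 ± 0.15), FAS1 (-0.83 ± 0.26) and ACC1 (-0.95 ± 0.25), the synthase subunits and the acetyl-CoA carboxylase. After length correction 1 was lower and 3 were higher. Sphingolipid synthesis had 4 of 11 higher, led by LIP1, a ceramide synthase subunit (1.31 ± 0.13), and 2 lower. In copper and zinc transport 2 of 12 were higher and 5 lower, with IZH3 at -1.42 ± 0.12. Pyrimidine synthesis had 4 of 11 higher and 3 lower, among them FUR4, the uracil permease (-1.73 ± 0.38). Sulfur amino acid synthesis had 2 of 23 higher and 7 lower, and peroxisome biogenesis 1 of 19 higher and 5 lower. The shares called lower were 30.4% and 26.3%, against 26.3% over all genes tested. PEX5, the receptor for peroxisomal import, differed by -1.28 ± 0.10. CWP1, the wall mannoprotein gene in the table, had 0.79 ± 0.13. FAS1, ACC1 and FAT1 did not keep their calls when any 1 of the 4 libraries was left out, the adjusted p lying between 0.0512 and 0.182. FUR4 was not called without TE library 2 (adjusted p up to 0.0748). With 1 library left out the calls were 0 higher and 1 lower for fatty acid genes, 2 to 4 higher and 0 to 1 lower for sphingolipid genes, 1 to 2 higher and 4 to 5 lower for copper and zinc genes, 1 to 4 higher and 1 to 3 lower for pyrimidine genes, 1 higher and 1 to 3 lower for sulfur amino acid genes and 1 higher and 2 to 4 lower for peroxisome biogenesis. Length correction gave 2 higher and 2 lower (median -0.09) for pyrimidine genes and 2 higher and 4 lower (median -0.10) for peroxisome biogenesis. Corrected for length, the log2 fold change was 0.71 for FAT1 and -0.47 for FAS2, and -0.33 for FAS1 and -0.14 for ACC1, no longer called (adjusted p up to 0.622).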
